A study of Mus musculus with 24 samples.

Results

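The insulin-like growth factor (IGF) system was followed through hippocampal RNA of wild-type (WT) and MSK1 kinase-dead (MSK1 KD) mice. Its members were 10 of the 49568 gene symbols counted. They are the ligands Igf1 and Igf2, the receptors Igf1r and Igf2r, and the binding proteins Igfbp2 to Igfbp7. These were chosen by name, with earlier results of these data known. All mice were males on a C57-Bl/6J background whose age is given as 12 weeks after birth, and they had undergone no experiment. MSK1 KD mice are homozygous for a point mutation in the endogenous gene that turns Asp194 into Ala and inactivates the N-terminal kinase domain in every cell, and they were kept as a line apart from the WT line rather than bred as littermates. Standard housed (SH) mice lived in small groups in ordinary cages, whereas enriched (EE) mice lived from birth in a large cage with a running wheel and changing toys. Of 24 libraries of poly-A RNA from whole hippocampus, 22 were used here, which are 6 WT SH, 5 WT EE, 6 KD SH and 5 KD EE.

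IGF-1 and IGF-2 are secreted growth factors related to insulin. Both signal through the receptor tyrosine kinase IGF1R, while IGF2R, the cation-independent mannose-6-phosphate receptor, carries IGF-2 to lysosomes and does not signal as a kinase. The binding proteins hold the ligands outside cells and set how much reaches the receptors. In the adult rodent brain the ligands and binding proteins are not made evenly, and the choroid plexus, the epithelium that secretes cerebrospinal fluid, and the meninges are known as sites of strong Igf2 and Igfbp2 expression. Transthyretin (Ttr), the carrier of thyroid hormone, is the most abundant product of the choroid plexus and was used as its measure.

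The 22 libraries held between 8911999 and 56752074 counts on genes, and levels are given as CPM, counts scaled to the size of the library after TMM adjustment, so that 3 counts, the floor for detection taken over the library total, stand for 0.0529 to 0.337 CPM. All 10 members stood far above this floor, with at least 36 counts in every library. Libraries 33B (WT EE) and 34B (KD EE) had failed the study's quality control and were left out, and the study had also left out libraries 2, 9, 12, 31B and 35A for poor correlation within their groups, which gave its set of 17. Some of these 5 libraries stand apart in the measurements below. Libraries 9, 31B and 35A are EE libraries with low Ttr (166.4, 41.7 and 34.2 CPM). Libraries 2 and 12 are SH libraries with high Ttr (2622 and 1660 CPM). Values without these 5 libraries are therefore also given for the housing changes of Igf2, Igfbp2 and Igfbp7, for the counts of members called and for some other results. The housing changes of the other members are printed over the 22 libraries. Markers of hippocampal neurons were present throughout, with a summed level of 5294 to 6892 CPM for 6 genes of pyramidal neurons and 398 to 651 CPM for 6 genes of dentate granule cells. Rps6ka5, the gene of MSK1, averaged 24.9 ± 2.21 CPM for the 6 WT SH libraries (means ± SD here and below), 25.4 ± 2.18 for the 6 KD SH, 21.4 ± 1.92 for the 5 WT EE and 23.6 ± 3.47 for the 5 KD EE. Since the mutation changes 1 codon, its level does not check the genotype.

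Promoters are shown for the 2 members that moved together most closely, Igf2 and Igfbp2, and for Igf2r, the member that separated the WT housing groups. Each is the 250 bases before a start site given by RefSeq for GRCm38.p6, 5′ to 3′ on the strand of the gene, and none overlaps an exon of GENCODE M21. Capitals mark the short motif TGACG, in either orientation, of the cAMP response element, to which CREB, a substrate of MSK1, binds. Igf2 has 4 start sites, of which the one nearest to the end of the gene is shown.
Igf2, chr7:142657497-142657746, minus strand: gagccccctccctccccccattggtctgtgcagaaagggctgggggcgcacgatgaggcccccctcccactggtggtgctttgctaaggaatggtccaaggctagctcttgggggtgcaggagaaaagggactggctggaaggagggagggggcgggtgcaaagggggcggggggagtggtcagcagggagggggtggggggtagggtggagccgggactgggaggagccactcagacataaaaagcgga
Igfbp2, chr1:72824230-72824479, plus strand: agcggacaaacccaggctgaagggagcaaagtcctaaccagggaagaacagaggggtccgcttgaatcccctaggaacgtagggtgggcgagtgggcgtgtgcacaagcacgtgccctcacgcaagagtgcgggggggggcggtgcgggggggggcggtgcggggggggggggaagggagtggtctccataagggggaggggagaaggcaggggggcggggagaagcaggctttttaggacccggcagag
Igf2r, chr17:12769707-12769956, minus strand: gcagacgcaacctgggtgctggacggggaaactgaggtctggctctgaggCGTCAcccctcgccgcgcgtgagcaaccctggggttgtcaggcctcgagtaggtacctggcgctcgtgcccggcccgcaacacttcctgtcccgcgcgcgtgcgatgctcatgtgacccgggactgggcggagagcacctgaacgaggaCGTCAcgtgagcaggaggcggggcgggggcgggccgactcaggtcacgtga
The Igf2r window held 2 copies of the short motif, both reading CGTCA on this strand, and the windows of Igf2 and Igfbp2 shown held none. Of the other Igf2 windows, which are not shown, 1 (chr7:142658805-142659054, inside an exon) held 1 copy. Among 32851 promoter windows of this length, 17.8% held the short motif on either strand and 1.55% the full palindrome TGACGTCA, which contains it and was in no window of a member. TAATCC, the core bound by OTX factors such as the choroid plexus factor OTX2, was in 6.25% of all windows and in no window of a member. A match in such a window is a description of its letters only.

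In GRCm38, Igfbp2 (chr1:72824503-72852474) and Igfbp5 (chr1:72857932-72874884) are neighbours 5457 bases apart. Igf2 (chr7:142650766-142666816) overlaps its antisense gene Igf2os, and 64.5% of its exon bases are shared with Igf2os or the gene model Gm49394. This share is from GENCODE M21, while the study counted reads without regard to strand on the annotation it names. How many reads from those bases were given to Igf2, or fell outside single genes, was not tested. The other members share 7.03% of exon bases (Igfbp7, with Polr2b) or none with another gene.

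Per kilobase of exon and over all groups, Igfbp5 was the most abundant of the 9 members other than Igf2, at 41.9 ± 4.68 CPM per kb (SD over the 22 libraries). Igfbp2 followed at 21.7 ± 16.3 CPM per kb and Igfbp4 at 18.4 ± 1.83, which do not differ beyond their spread and whose order depends on the group: Igfbp4 was above Igfbp2 in WT SH (18.4 and 13.9) and below it in WT EE (19.3 and 33.9), and in library 33A Igfbp2 reached 53.3. Igf2 was at 16.1 ± 12.2 over its 5723 exon bases, but as only 2029 of these are its own, its place in the order is not given. Igfbp7 (11.2 ± 2.57) and Igfbp6 (9.51 ± 1.98) overlapped as well. Igf2r was at 6.32 ± 0.816, Igfbp3 at 4.98 ± 0.640 and Igf1r at 4.77 ± 0.520 CPM per kb, the last pair within each other's spread. Igf1 was lowest by far, at 0.697 ± 0.114 CPM per kb. The spread between libraries set a pair of members apart: Igf2 and Igfbp2 ranged 7.82-fold and 8.11-fold from the lowest to the highest library, while the other 8 ranged from 1.47-fold (Igfbp4) to 2.20-fold (Igfbp7).

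**Figure D1:**
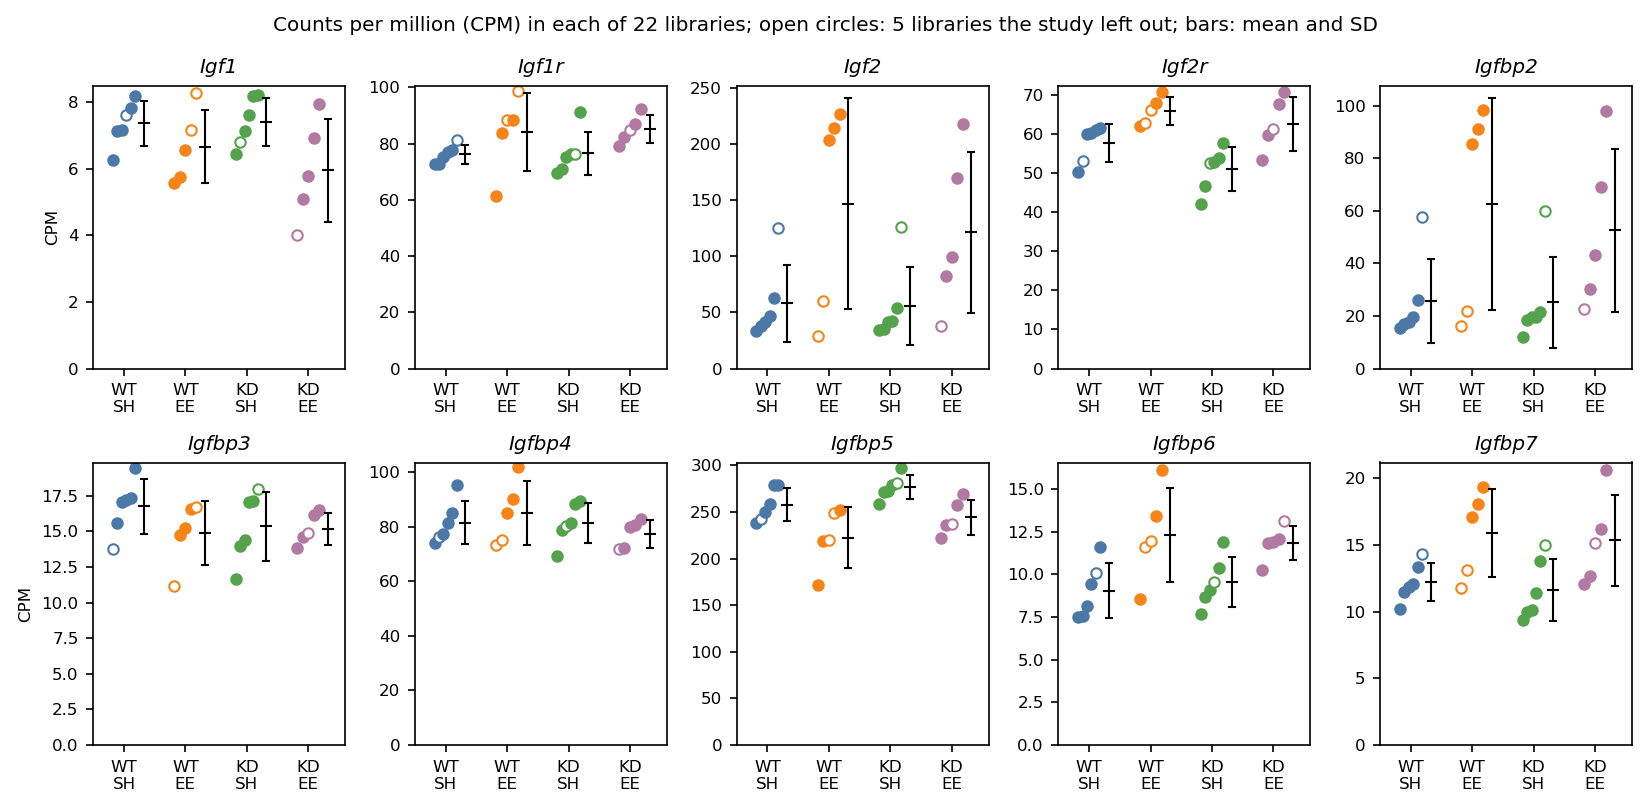
Level of each member in CPM (vertical axes, from 0) in each library of the 4 groups, with the mean and SD beside the points and open circles for the 5 libraries the study left out. Igf2 and Igfbp2 span a wide range in every group, and their highest SH libraries, 12 in WT and 2 in KD, are open circles.

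Igf2, the ligand that is high in the embryo and in the adult stays on in choroid plexus and meninges, was higher in most but not all EE libraries. In WT SH its level was 33.7 CPM at the lowest, 44.2 at the median and 125.0 at the highest, and in WT EE the libraries stood at 28.9, 60.5, 203.2, 214.0 and 226.2 CPM. In KD SH it ranged from 34.5 over a median of 41.8 to 125.7 CPM, and in KD EE the values were 38.3, 82.4, 99.1, 169.6 and 217.8 CPM. In both genotypes the groups overlapped: 1 SH library of each genotype (12 and 2) reached the level of the EE libraries, and 31B and 35A among WT EE and 9 among KD EE stayed near the level of most SH libraries. Between housings, Igf2 in EE exceeded SH by 1.34 ± 0.47 (SE) on the log2 scale in WT, with 4 of 5 EE libraries above the SH mean, and 1.14 ± 0.47 in KD, with 4 of 5 above it, at adjusted p of 0.414 and 0.480. In the study's 17 libraries the change was 2.27 ± 0.22 in WT (adjusted p = 1.1e-06) and 1.77 ± 0.21 in KD (adjusted p = 1.51e-05), and every EE library lay above every SH library. All EE libraries of that set were high in Ttr and all its SH libraries except library 11 were low. Housing and Ttr can therefore hardly be told apart among the 17.

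Igf1, the growth factor that in the brain comes from neurons, microglia and vessels, went the other way. It was at 7.37 ± 0.677 CPM in WT SH and 6.67 ± 1.11 in WT EE, and at 7.41 ± 0.726 in KD SH and 5.96 ± 1.54 in KD EE. A single EE library of each genotype exceeded the SH mean. The log2 fold changes of -0.14 ± 0.13 and -0.28 ± 0.14 did not pass the test (adjusted p of 0.840 and 0.517), and the groups overlapped. The WT change ran from -0.24 without library 35A to -0.08 without library 17.

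Igf2r, which clears IGF-2, was the member that separated the WT groups without exception. WT SH libraries ran from 50.2 CPM over a median of 60.1 to 61.5, and WT EE libraries were at 62.0, 62.7, 66.0, 68.0 and 70.8 CPM. The 5 EE values lay above all SH values, though by a margin smaller than the range within either group. In KD SH the range was 42.0 to 57.7 CPM with a median of 52.8, and KD EE libraries were at 53.3, 59.7, 61.2, 67.7 and 70.8, so that 1 EE library overlapped with SH. The log2 fold changes were small, 0.19 ± 0.08 in WT and 0.30 ± 0.08 in KD, and did not pass the test (adjusted p of 0.468 and 0.453). Of all 18482 genes tested, 1.19% had no overlap between the housing groups in WT and 0.546% in KD, against 1 and 0 of the 10 members. In the set of 17, Igf2, Igfbp2, Igfbp7 and Igf2r had no overlap in WT, where the share of all genes was 12.4%, and Igf2 and Igfbp2 had none in KD, where it was 3.12%.

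Igf1r, the signalling receptor, was at 76.1 ± 3.34 CPM in WT SH and 84.1 ± 13.9 in WT EE, and at 76.6 ± 7.71 in KD SH and 85.1 ± 4.95 in KD EE. The log2 fold change was 0.15 in both genotypes (SE 0.08), with 4 of 5 WT EE and 5 of 5 KD EE libraries above the SH mean, and did not pass the test (adjusted p of 0.662 and 0.565). In WT it was 0.24 without library 17 and 0.08 without library 35A. In KD SH, library 6 stood apart at 91.2 CPM, above 4 of the 5 KD EE libraries.

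Among the binding proteins, Igfbp2, which binds IGF-2 tightly and is abundant in cerebrospinal fluid, was high in the libraries that were high in Igf2. It ran from 15.6 CPM over a median of 18.7 to 57.5 in WT SH, and WT EE libraries were at 16.2, 21.7, 85.4, 91.2 and 98.5 CPM. In KD SH it ran from 12.1 over 19.5 to 60.1 CPM, and KD EE libraries were at 22.5, 30.1, 43.2, 69.0 and 97.8. The same libraries as for Igf2 were high in SH and low in EE, and the groups overlapped. The log2 fold change was 1.296 ± 0.46 in WT and 1.07 ± 0.46 in KD (adjusted p of 0.427 and 0.491), and over the 17 libraries it was 2.26 ± 0.24 (adjusted p = 1.88e-06) and 1.72 ± 0.22 (adjusted p = 4.18e-05).

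The ratio of Igfbp2 to Igf2 in CPM varied far less than either gene, at 0.444 ± 0.0654 (SD, n = 22). Its group means were 0.441 in WT SH, 0.440 in WT EE, 0.448 in KD SH and 0.449 in KD EE, and single libraries ran from 0.352 to 0.587, while the level of either gene varied over 7-fold. That contrast rests on the libraries high in both genes. In the 12 libraries lowest in Ttr, described below, Igf2 ran only from 28.9 to 60.5 CPM and Igfbp2 from 12.1 to 22.5. Their Pearson r was 0.539 there.

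Igfbp7, a low-affinity binder of IGFs made by vessels and by choroid plexus, was at 12.2 ± 1.45 CPM in WT SH and at 11.8, 13.1, 17.1, 18.1 and 19.4 CPM in the WT EE libraries. In KD it was at 11.6 ± 2.29 CPM in SH, and the EE libraries stood at 12.1, 12.7, 15.1, 16.2 and 20.6. EE libraries lay above the SH mean in 4 of 5 cases in WT and 5 of 5 in KD, with overlap in both. Its changes, 0.38 ± 0.15 (WT) and 0.40 ± 0.15 (KD) as log2 fold, did not pass the test (adjusted p of 0.452 and 0.467), and in WT it reached 0.62 ± 0.14 over the 17 libraries (adjusted p = 0.0118), against 0.50 ± 0.14 in KD (adjusted p = 0.0661).

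Igfbp6, which prefers IGF-2, was at 9.06 ± 1.62 CPM in WT SH and 12.3 ± 2.76 in WT EE, and at 9.56 ± 1.46 in KD SH and 11.8 ± 1.02 in KD EE. Its log2 fold change of 0.44 ± 0.14 in WT had the lowest p of the members there (unadjusted p = 0.00355, adjusted p = 0.400). In KD the change was 0.31 ± 0.14 (adjusted p = 0.496). Igfbp5, known from neurons and from the dentate gyrus, had lower means in EE. It was at 258 ± 17.9 CPM in WT SH and 222 ± 32.6 in WT EE, and at 277 ± 12.6 in KD SH and 244.5 ± 18.8 in KD EE. No EE library of either genotype exceeded the SH mean, but the groups overlapped and the log2 fold changes of -0.21 ± 0.08 and -0.18 ± 0.08 did not pass the test (adjusted p of 0.425 and 0.491). Without library 17 the WT change of Igfbp5 was -0.14.

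Igfbp3, the main carrier of IGFs in plasma, and Igfbp4, an inhibitory binding protein cut by pappalysins, differed little between the groups. Igfbp3 lay between 14.9 and 16.8 CPM in the group means, with log2 fold changes of -0.17 ± 0.11 in WT and -0.02 ± 0.11 in KD. Igfbp4 lay between 77.4 and 85.0 CPM, with changes of 0.06 ± 0.08 and -0.07 ± 0.08, and the adjusted p of these 4 changes were 0.709 or more. Without library 35A the WT change of Igfbp3 was -0.09, and without library 17 that of Igfbp4 was -0.0148.

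Counted over the system, 0 of 10 members were called for EE against SH in WT or in KD over the 22 libraries by edgeR's quasi-likelihood test, which asked for an adjusted p no higher than 0.05 and at least a 1.3-fold change. Of all 18482 genes tested, 0% were called in either comparison, and DESeq2, which called 20 of these genes in WT and 3 in KD, called 0 members. At an unadjusted p under 0.05 stood 6 members in WT (5 of them higher in EE), against 8.65% of all genes, and 7 in KD (5 higher), against 9.63%. The median log2 fold change of the members was 0.17 in WT and 0.23 in KD, beside 0.01 and 0.00 for all genes. Over the 17 libraries, whose choice by similarity within groups used these same measurements, 3 members were called in WT (Igf2, Igfbp2 and Igfbp7) against 3.55% of all genes, and 2 in KD (Igf2 and Igfbp2) against 1.74%. The choice of libraries thus moved the change of Igf2 and Igfbp2 by over 1.5 times.

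**Figure D2:**
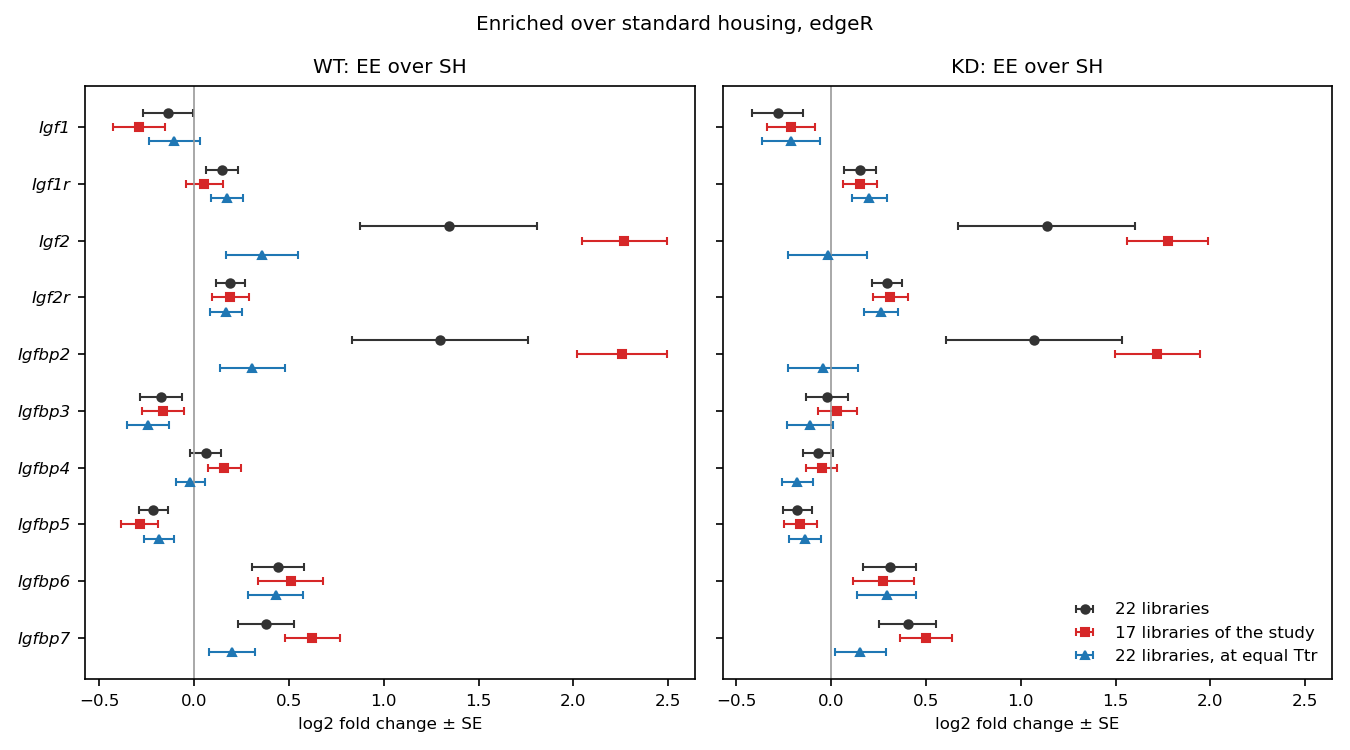
Log2 fold change of EE over SH (horizontal axes) with its SE for each member in WT and in KD, from edgeR over 22 libraries, over the 17 of the study, and over 22 at equal Ttr. Igf2 and Igfbp2 lie at 1.07 to 1.34 over 22 libraries, at 1.72 to 2.27 over 17, and between -0.04 and 0.36 at equal Ttr.

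The genotypes were compared within each housing. No member was called for WT SH against KD SH, for WT EE against KD EE or for the interaction of genotype and housing, nor was any of the 18482 genes (0%). At an unadjusted p under 0.05 were 1 member in SH (5.76% of all genes), 0 in EE (2.61%) and 0 for the interaction (2.04%). The member in SH was Igf2r, at 57.7 ± 4.79 CPM in WT and 51.0 ± 5.60 in KD, a log2 fold change of 0.18 ± 0.07 of WT over KD (unadjusted p = 0.0263, adjusted p = 0.811). The interaction, which tests whether the change with housing differs between genotypes, was 0.21 ± 0.66 for Igf2 and 0.22 ± 0.66 for Igfbp2 on the log2 scale, with adjusted p of 1 for both. In the set of 17, 0 members were called in these 3 comparisons, beside 0%, 0.00535% and 0% of all genes, and the interaction was 0.50 ± 0.31 for Igf2 and 0.54 ± 0.33 for Igfbp2 (adjusted p = 0.875 for both).

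Each member was then related to Ttr, whose level ran from 16.8 to 5126 CPM. The libraries fell into separate sets, 12 from 16.8 to 166.4 CPM (9 SH and 3 EE) and 10 from 690.4 to 5126 CPM (3 SH and 7 EE), with a gap of 2.05 on the log2 scale between them. Correlations were therefore taken within each set. The 13 other choroid plexus genes of the marker list, such as Kl, Clic6 and Folr1, moved with Ttr (r = 0.994 in the upper set and 0.911 in the lower). In whole tissue, more choroid plexus cells and more RNA per cell cannot be told apart, and how much of this tissue each dissection held was not recorded in the labels.

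In the 10 libraries of the upper set, Igf2 and Igfbp2 rose closely with Ttr, but less steeply. Library 11 was lowest in Ttr there and 36A highest (690.4 and 5126 CPM). Between these libraries Igf2 went from 63.1 to 217.8 CPM and Igfbp2 from 26.1 to 97.8. Pearson's r of log2 CPM was 0.966 for Igf2 (rho = 0.976) and 0.976 for Igfbp2 (rho = 0.952), each with an unadjusted permutation p of 3e-05, and stayed at 0.914 and 0.921 without the 2 libraries farthest from the median. Igfbp7 followed more loosely, with r = 0.844 (permutation p = 0.00226) and rho = 0.903, and r was 0.889 without the farthest 2. The other 7 members had r from -0.469 (Igfbp5) to 0.626 (Igf2r) with permutation p of 0.0551 or more. The p of Igf2r lay on either side of 0.05 by the setting: r was 0.705 on CPM (permutation p = 0.0288), 0.766 in the set of 17 (permutation p = 0.0247), 0.758 without library 11 and 0.729 without library 2, but 0.532 without library 7 (permutation p = 0.137). For Igf1r, r went from 0.182 to 0.725 (permutation p = 0.0285) without library 17. These were 20 relations over both sets, tested 1 at a time.

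The relation was also taken within a housing. Among the 7 EE libraries of the upper set, r was 0.960 for Igf2 (exact permutation p = 0.000595), 0.983 for Igfbp2 (exact permutation p = 0.000794) and 0.880 for Igfbp7 (exact permutation p = 0.00714). Igf2r reached r = 0.844 as well (exact permutation p = 0.0179). Without the farthest 2, r stayed at 0.959 for Igf2 and 0.971 for Igfbp2, and was 0.778 for Igfbp7 (exact permutation p = 0.117) and -0.0567 for Igf2r, which thus rested on those 2. The 3 SH libraries of the upper set, 11, 2 and 12, lay in the same band, with 63.1, 125.7 and 125.0 CPM of Igf2 at 690.4, 2622 and 1660 CPM of Ttr. An enriched library with little Ttr, 9 (KD EE, 166.4 CPM), had 38.3 CPM of Igf2, below the 54.2 CPM of the standard housed library 4 at 136.0 CPM of Ttr. Another, 35A (WT EE), had 60.5 CPM of Igf2 at 34.2 CPM of Ttr, more Igf2 than every SH library of the lower set, while 31B (WT EE) had the least, 28.9 CPM at 41.7 CPM of Ttr.

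In the 12 libraries of the lower set the relation was weaker. Igf2 had r = 0.284 (permutation p = 0.374), Igfbp2 had r = 0.642 (permutation p = 0.0222) with rho = 0.546 (permutation p = 0.0708), and Igfbp7 had r = 0.000. Without the 2 farthest libraries r of Igfbp2 was 0.568 (permutation p = 0.0895), and p was also above 0.05 without library 3, 5 or 9 alone (r = 0.599, 0.532 and 0.560). Among the 9 SH libraries of this set, r was 0.692 for Igf2 (exact permutation p = 0.0391), 0.669 for Igfbp4 (exact permutation p = 0.0493) and 0.665 for Igfbp2 (exact permutation p = 0.0429), and was 0.440, 0.234 and 0.551 without the farthest 2. At the lowest Ttr, 16.8 CPM in library 5, Igf2 was still at 34.5 CPM, so that a 305-fold range of Ttr went with the 7.82-fold range of Igf2.

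**Figure D3:**
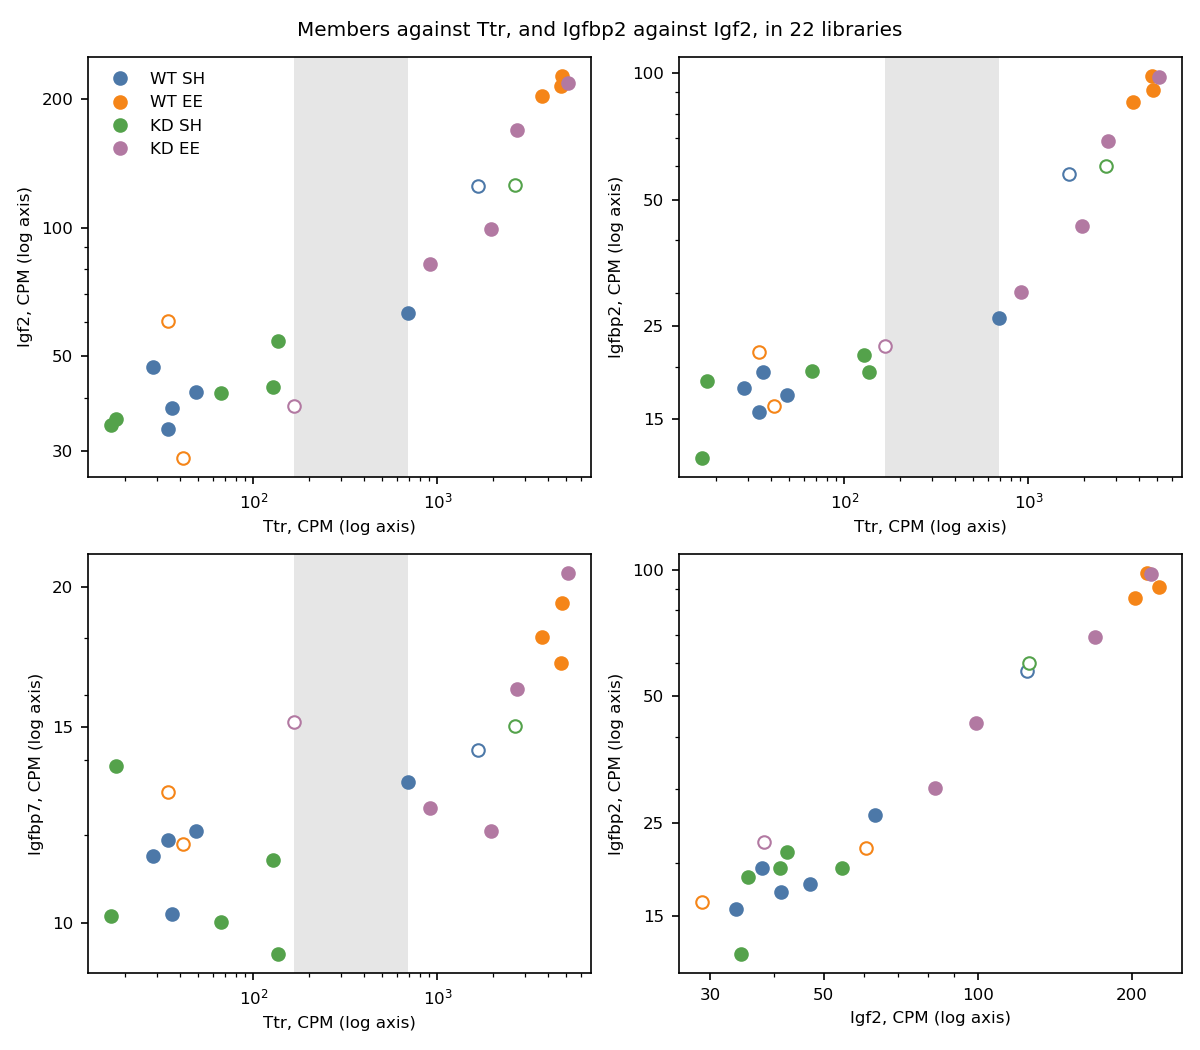
Igf2, Igfbp2 and Igfbp7 against Ttr, and Igfbp2 against Igf2, in CPM on log axes, 1 point a library, open for the 5 libraries the study left out and with the gap in Ttr shaded. Right of the gap Igf2 and Igfbp2 climb with Ttr among the 7 EE libraries, and the 3 SH libraries lie in the same band. Left of it they stay between 28.9 and 60.5 CPM and between 12.1 and 22.5 CPM. In the last panel Igfbp2 goes closely with Igf2 in the 10 libraries over the gap in Ttr (r = 0.987). It does so more loosely in the 12 under it (r = 0.539).

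In the fit across all genes, with a mean for each group and log2 Ttr as a covariate, 3 of the 10 members had a slope on Ttr that passed the test, beside 6.57% of 18481 genes. This fit puts 1 straight line on log2 Ttr across the gap. Within the sets, r of Igf2 with Ttr was 0.966 above the gap and 0.284 below it, so a single slope need not describe either set. The slope is the log2 change for each doubling of Ttr. It was 0.31 ± 0.03 for Igf2 (adjusted p = 1.36e-09), 0.31 ± 0.02 for Igfbp2 (adjusted p = 1.1e-10) and 0.06 ± 0.02 for Igfbp7 (adjusted p = 0.0113). Without library 2 (KD SH), Igfbp7 lost its call, and without library 12 (WT SH) Igfbp4 gained one at 0.04. Over the 17 libraries, where Ttr and housing nearly coincide, the slope of Igf2 was 0.21 ± 0.04 (adjusted p = 0.0457) and that of Igfbp2 0.21 ± 0.05 (adjusted p = 0.159), beside 0.182% of all genes called.

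At equal Ttr, 0 members and 0% of all genes were called for EE against SH in WT or in KD, over 22 or over 17 libraries. Equal Ttr is taken along that single line across the gap, and a line for each set was not fitted. The change of Igf2 was 0.36 ± 0.19 in WT (adjusted p = 0.643) and -0.02 ± 0.21 in KD (adjusted p = 0.982), and that of Igfbp2 was 0.31 ± 0.17 (adjusted p = 0.660) and -0.04 ± 0.18 (adjusted p = 0.946). Igfbp7 was at 0.20 ± 0.12 and 0.15 ± 0.13. Igfbp6 (0.43 ± 0.14 in WT and 0.29 ± 0.16 in KD), Igf2r (0.17 ± 0.08 and 0.26 ± 0.09) and Igfbp5 (-0.19 ± 0.08 and -0.14 ± 0.08) differed by less than their SE from their changes without Ttr in the fit, and did not pass the test either. With the 17 libraries the changes of Igf2 at equal Ttr were 1.03 ± 0.32 in WT and 0.61 ± 0.29 in KD (adjusted p of 0.996 and 0.9998).

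The members were also set beside marker lists of 11 cell types, by the Pearson r of log2 CPM with the mean log2 CPM of each list, as a description. In the upper set the choroid plexus list had the highest r for Igf2 (r = 0.954), Igfbp2 (0.970), Igfbp7 (0.824) and Igf2r (0.679). Ependyma came second for Igf2 (0.687) and Igfbp2 (0.751). For Igf2r, r was larger in size but negative with interneurons (-0.774), microglia (-0.716) and oligodendrocytes (-0.703). The 13 genes of the choroid plexus list summed to 34.1 to 278.86 CPM in WT SH, 31.8 to 867 in WT EE, 30.5 to 412.5 in KD SH and 59.955 to 826 in KD EE, with none at 0 in all libraries, moving with the same libraries as Ttr. In the lower set, where choroid plexus genes were low, Igf2 went most closely with the list of meningeal fibroblasts (r = 0.840, against 0.420 with choroid plexus), which holds collagens and Dcn. That list summed to 87.1 to 118 CPM in WT SH, 76.4 to 175.5 in WT EE, 64.5 to 138 in KD SH and 80.9 to 149 in KD EE, with no gene at 0 throughout, and its part in the level of Igf2 was not tested. The list of dentate granule cells came first in the lower set for Igfbp2 (0.668, against 0.597 with choroid plexus). It also had the highest r for Igf2r (0.655, against 0.0546) and Igfbp7 (0.361, against -0.119). Negative r were larger in size there for Igf2r with oligodendrocytes (-0.687). For Igfbp7 they were so with microglia (-0.796), astrocytes (-0.715), ependyma (-0.643), oligodendrocytes (-0.617) and interneurons (-0.442). Igf1 had no list that it followed alike in both sets: r was 0.862 in the lower and 0.449 in the upper with astrocytes, 0.608 and -0.115 with microglia, and -0.0568 and 0.672 with endothelium.

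**Figure D4:**
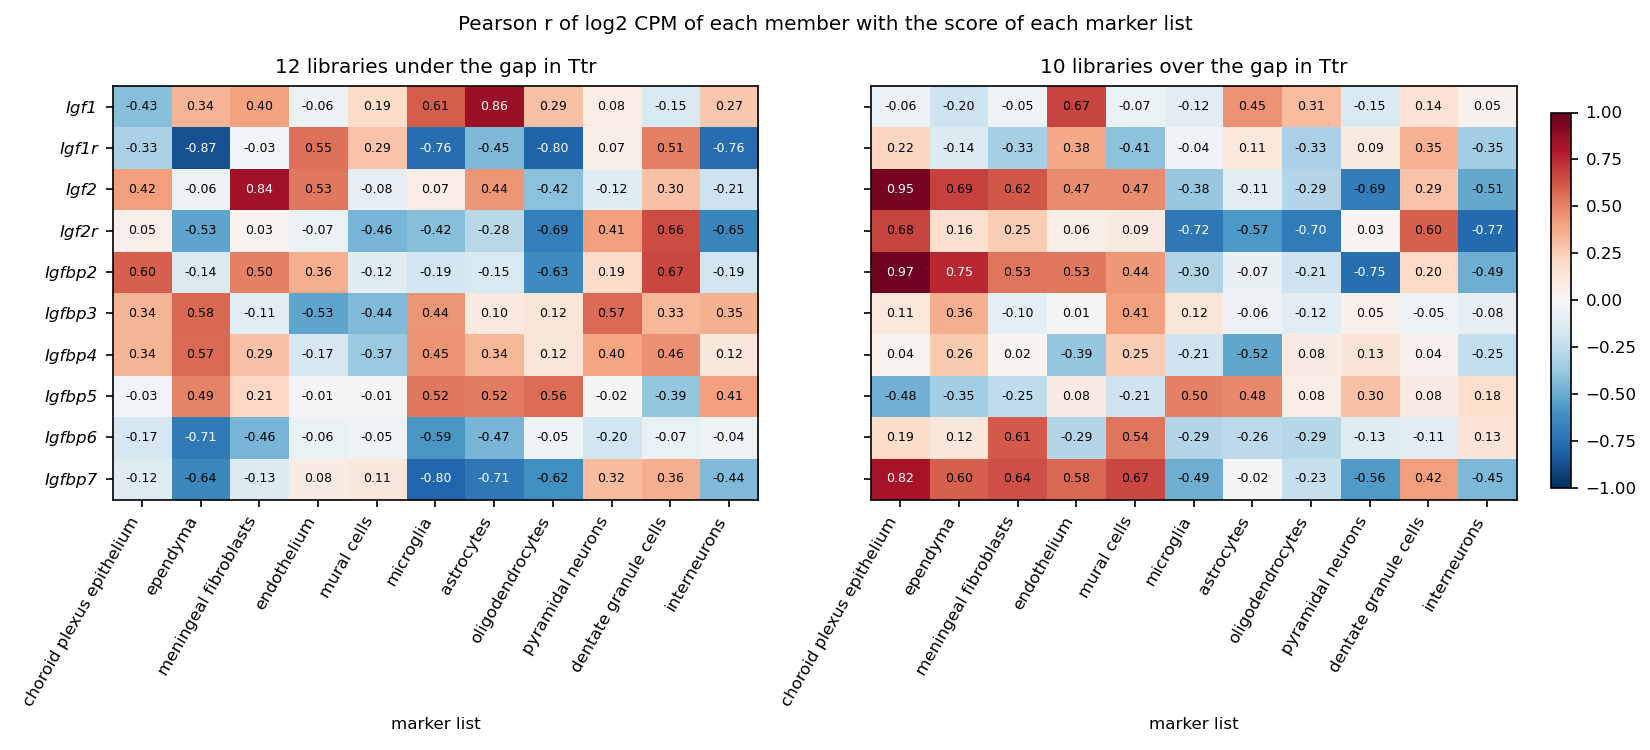
Pearson r (colour and number) of each member with the score of each marker list, in the 12 libraries under the gap in Ttr (left) and the 10 over it (right). Over the gap Igf2, Igfbp2 and Igfbp7 are at 0.954, 0.970 and 0.824 with choroid plexus. Under it they are at 0.420, 0.597 and -0.119 with choroid plexus, and Igf2 is at 0.840 with meningeal fibroblasts.

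Among themselves, Igf2 and Igfbp2 had the closest pairing in the upper set (r = 0.987), each followed by Igfbp7 (0.896 with Igf2 and 0.875 with Igfbp2), while in the lower set Igf2 and Igfbp2 were at r = 0.539 and Igf2 and Igfbp7 at -0.104. Of 15011 other genes with a mean of at least 1 CPM, those most like Igf2 over the 22 libraries were Pcolce (r = 0.982), Ace (0.978) and Sema3b (0.978), with Ttr at rank 69 (0.935). Those most like Igfbp2 were Kl (0.982), Ace (0.982) and Sema3b (0.980), with Ttr at rank 56 (0.947). For Igfbp7 they were Cpt2 (0.895), Prrg4 (0.894) and Llgl2 (0.891). These r span both sets and so take in the gap between them. The remaining members had other neighbours, Samd15 (0.851) for Igf1, Kmt2d (0.871) for Igf1r, Atp2b3 (0.887) for Igf2r, Cpne2 (0.822) for Igfbp3, Usp2 (0.819) for Igfbp4, Gm11627 (0.797) for Igfbp5 and Gm34294 (0.751) for Igfbp6.

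Of 42 other genes of the pathway, from insulin and its receptor to the IRS adaptors, the pappalysins and the PI3K, AKT and FOXO steps, 37 were tested over the 22 libraries and 0 were called for housing in either genotype. Their median log2 fold change was 0.05 in WT and 0.05 in KD. Insr, the insulin receptor, was at 70.4 ± 2.77 CPM in WT SH, 72.7 ± 4.39 in WT EE, 70.3 ± 4.17 in KD SH and 71.1 ± 2.39 in KD EE. Irs1 and Irs2, the adaptors of the insulin and IGF-1 receptors, changed by 0.20 ± 0.14 and 0.14 ± 0.13 in WT and by 0.27 ± 0.14 and 0.27 ± 0.13 in KD, with adjusted p of 0.514 or more. Igfbpl1 (1.88 to 3.05 CPM in the group means) and Igf2bp2 (0.364 to 0.508 CPM) were low and not called.

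The slope on Ttr was called in 3 of the 37, all upward, a share near the 6.57% of all genes. These were Igf2os (0.22 ± 0.04, adjusted p = 0.000645), which shares bases with Igf2, the insulin gene Ins2 (0.69 ± 0.09, adjusted p = 8.94e-06), which lies next to Igf2 in the imprinted cluster, and Adamts1 (0.05 ± 0.01, adjusted p = 0.0273), a secreted protease. Ins2 stayed under 0.871 CPM everywhere and had no counts in some libraries of each group, and Igf2os under 1.35 CPM, so both rest on few counts. H19, the noncoding RNA next to Igf2 that is expressed from the other parental copy, had group means of 0.0861 to 0.257 CPM and was too low to be tested over the 22 libraries. Over the 17 libraries Igf2os and Ins2 were called for housing in WT and Ins2 in KD, 2 and 1 of 38 tested, shares near the 3.55% and 1.74% of all genes.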

How the data were processed

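Libraries of poly-A RNA were prepared with TruSeq v2 and sequenced as paired ends. Skewer was used by the authors to remove adaptors, STAR to align to GRCm38 and HTSeq to count the reads with 1 place of alignment per gene, without regard to strand. The deposited raw counts of each library, one file each for 49568 gene symbols, were used as they stand, and a deposited table of normalised signal for the series was not used. STAR 2.5 is the version in the submitters' processing notes. Each library was placed in its group by its label, which gives a code and no pairing, and nothing says that replicates share an animal, so p-values measure the spread between these libraries. Housing was given to whole cages of mice, and the labels name no cage or litter. Libraries of a group may share a cage, so the p-values for housing do not measure the spread between cages. In the 22 libraries, 14.0% to 18.6% of counted fragments fell outside single genes and stayed out of library sizes. No pair among the 276 pairs of libraries held identical counts.

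Genes were filtered with filterByExpr by group, scaled by TMM and fitted with edgeR 4.0.16 in R 4.3.3 by 1 quasi-likelihood model with 4 group means over 22 libraries, the set named for this gene system, and p were adjusted by Benjamini-Hochberg over all genes tested. Calls needed both an adjusted p no higher than 0.05 and a log2 fold change of at least 0.38 in size, which is 1.3-fold. A second model added log2 Ttr CPM (prior count 2), whose slope was called on the adjusted p alone. Correlations used two-sided permutation tests, within sets where Ttr left a gap of 2 or more on the log2 scale. The tests took 100000 resamples, or exact enumeration for the libraries of 1 housing within a set. The members, gene lists and tests were chosen with earlier results of these data known. The genes named are the members, Ttr, the listed pathway genes named in the rule or called, and the 3 genes most like each member by Pearson r, of which 1 is printed for members other than Igf2, Igfbp2 and Igfbp7. Adding library 33B (1262 CPM of Ttr) was possible for the correlations, while 34B, with 16442 counts, could not be placed. Gene positions are from GENCODE M21 and promoters from RefSeq, which held all 10 members. Alternatives were the 17 and 24 libraries, DESeq2 1.42.0, its size factors in edgeR, no filter, at least 10 counts in every library, no lettered libraries, only the groups compared, a choroid plexus score in place of Ttr, and each library left out. The code of the fits was run on simulated counts with planted changes and 1 spread for all genes. That run cannot show how the fits fare at the wide spread of Igf2 and Igfbp2 within groups.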

Additional observations from a re-analysis of the deposited data

Results flagged for a closer look

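Several single libraries stood away from their group by Dixon's test, which marks about 1 in 20 groups by chance and here marked 5 of 40 groups of the members. Igf2 and Igfbp2 stood apart as high in library 2 of KD SH (125.7 and 60.1 CPM) and in library 12 of WT SH (125.0 and 57.5 CPM), and Ttr stood apart as high in library 2 as well (2622 CPM). Igf1r stood apart as high in library 6 of KD SH (91.2 CPM).

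Library 33B (WT EE), left out after quality control and with 54.1% of fragments outside single genes, held 8.86 CPM of Igf1, 97.8 CPM of Igf1r and 68.8 CPM of Igf2r. These levels were scaled by TMM over all 24 libraries. Each was above the 6 WT SH libraries, but those had been scaled over 22. The counts behind them were 118, 1303 and 917 among 18667300. Whether the order rests on the scaling of this failed library was not tested. It had 98.1 CPM of Igf2 and 41.1 CPM of Igfbp2 at 1262 CPM of Ttr.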

How the results depend on the processing

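No paired analysis was possible because the labels carry library codes that no groups share. The number of members called for EE against SH in WT was 3 over the 17 libraries and 4 without lettered libraries (Igf2, Igfbp2, Igfbp6 and Igfbp7, beside 314 of 19153 genes) in place of 0, where all lettered libraries are EE and 16 and 17, both high in Ttr, are then the whole of WT EE, in KD it was 2 over the 17 in place of 0, the number with a slope on Ttr was 1 over the 17 in place of 3, and 7 in place of 4 of the 20 correlations had a permutation p under 0.05 over the 17. Over the 17, Ttr and housing nearly coincide, and the cause of these shifts was not tested. The other 64 counts under alternatives, and all 198 with 1 library left out, stayed within 1.5 times, with 2 to 4 slopes called and 3 to 5 correlations. Some values also changed sign. Over the 17 libraries they were Igfbp3 in KD (0.0325), the slopes of Igf1 (0.0213), Igf1r (0.0007) and Igfbp6 (-0.0213), and the changes at equal Ttr in KD of Igf2 (0.61) and Igfbp2 (0.55). Without lettered libraries they were Igf1r in WT (-0.0631) and the slopes of Igf1 (0.0016) and Igf1r (0.0011), and over all 24 the slope of Igfbp6 (-0.0001). With 1 library left out, Igfbp4 in WT ran from -0.0148 to 0.11, Igfbp3 in KD from -0.0835 to 0.0302, the slope of Igfbp6 from -0.0081 to 0.0158, and the changes at equal Ttr in KD from -0.12 to 0.14 for Igf2 and from -0.16 to 0.0648 for Igfbp2. The change of Igf2 was highest without library 12 in WT (1.72) and without library 2 in KD (1.56), and lowest without 16 (1.13) and 36A (0.83). Library 9, with 8911999 counts, limits Igf1 most (36 counts).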
